A study of Mus musculus with 6 samples.

Results

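Inner and outer cells of the mouse blastocyst at embryonic day 3.5 (E3.5) were compared in a single-cell RNA library of whole embryos. Of 152 barcodes in that library, 88 passed a filter of 1500 or more genes detected and no more than 15% mitochondrial counts. The cells of each group were chosen by their measured level of 1 gene, Upp1, the uridine phosphorylase of nucleoside salvage, which is high in inner cells at this stage. Cells with Upp1 at 3 or more UMIs per 10000 were taken as inner, and cells with less than 1 as outer (a UMI, or unique molecular identifier, tags 1 captured RNA). There were 39 inner cells (44.3% of the 88, exact binomial 95% interval 33.7% to 55.3%) and 43 outer cells (48.9%, 38.1% to 59.8%). The other 6 cells lay between the limits and were left out. These 82 cells stand beside 21856 cells that passed the same filter in all 6 libraries of the series, which run from E3.5 to E5.5.

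Both groups came from the same embryos and carried no mutation or drug. B6SJLF1/J females, 4 weeks old, were superovulated with 10 IU of PMSG and, 48 hours after it, 10 IU of hCG, mated with B6CBAF1/J males, and the embryos were flushed from the uterus and dissociated with Accumax. The cells passed a 20 µm filter before capture with the 10x Chromium 3' v3.1 chemistry. The number of embryos pooled is not given. Flushing was also used for the E4.5 library, whose cells are set beside these by lineage. The 4 later libraries came from embryos dissected out of 7-week-old females, and enter only where levels are given by stage.

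The first lineage decision of the mouse embryo separates outer cells, which become the trophectoderm, from inner cells, which form the inner cell mass. Trophectoderm is the epithelium that pumps fluid into the blastocoel and later builds the placenta, and its identity is set by CDX2 and GATA3, which act where cell polarity holds the Hippo pathway off. The inner cell mass keeps POU5F1, SOX2 and NANOG and then divides again, into epiblast, which secretes FGF4, and primitive endoderm, which answers it through FGF receptors and turns on GATA6, SOX17 and PDGFRA.

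Depth was close in both groups. The inner cells held 725703 UMIs in all, with a median of 18084 UMIs, 4566 genes and 5.23% mitochondrial counts per cell, and the outer cells held 838207 UMIs, with medians of 18654 UMIs, 4597 genes and 4.74%. No barcode of this library occurred in any of the other 5. Markers of 3 cell types from outside the embryo were near 0. The summed level of 8 cumulus and granulosa markers was 5.51 CPM in inner and 4.77 CPM in outer cells, with 6 of the 8 at 0 in both (CPM scales the summed counts of each group to one common total). Stroma markers summed to 0 and 2.39 CPM and blood markers to 0 and 3.58 CPM, inner before outer. The 8 markers of uterine and oviduct epithelium summed to 42.7 CPM in inner and 132 CPM in outer cells, with Foxj1, Lcn2, Ltf, Ovgp1 and Sprr2f at 0 in both. Most of that sum was Wfdc2, a secreted whey acidic protein, at 34.4 CPM in inner and 126 CPM in outer cells, with a UMI in 46.2% of inner and 90.7% of outer cells. Its part in the results was not tested.

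Upp1 chose the groups, so its values are only a description. The inner cells ranged from 3.38 to 20.2 UMIs per 10000 around a median of 7.74, and the 3 lowest stood at 3.38, 3.58 and 3.66. The outer cells ranged from 0 to 0.928: 37 cells had no Upp1 UMI, 5 had 1 and 1 had 2. The 6 cells between stood at 1.14 to 2.72.

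Lineage markers listed for the analysis, leaving out Upp1, differed between the groups in the direction of their names. The markers of inner cell mass and epiblast are 10 with Upp1, and those other than Upp1 summed to 2530 CPM in inner and 490.3 CPM in outer cells. The 12 trophectoderm markers summed to 237 CPM in inner and 10218 CPM in outer cells. Among them is Dab2 (33.1 and 211 CPM). Dab2 is also in the primitive endoderm list and was highest in the primitive endoderm class at E4.5, described below. Per cell, the trophectoderm sum ranged from 0 to 13.0 UMIs per 10000 in inner cells, with a median of 2.04, and from 3.54 to 188 in outer cells, with a median of 105. The ranges overlapped, but the outer median lay far above the highest inner cell. When all 88 cells were divided into 2 groups by clustering without Upp1, all 39 inner cells, all 6 cells between and 1 outer cell fell on one side and the other 42 outer cells on the other.

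That 1 outer cell went against its name. It had 8482 UMIs and 12.1% mitochondrial counts, no UMI of Krt18, Cdx2 or Gata3, and 11.8 UMIs per 10000 of Gata6, 4.72 of Sox2 and 2.36 of Nanog. A second outer cell carried Krt18 and Gata6 at 6.22 each, with Sox2 at 1.56. None of the 6 cells between had a Krt18 UMI, and 8 of the 39 inner cells had at least 1. Where leaving out the outer cell that lacked Krt18 moved the fold of a gene described below by over 1.5 times, the value without it is given beside that gene.

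**Figure D1:**
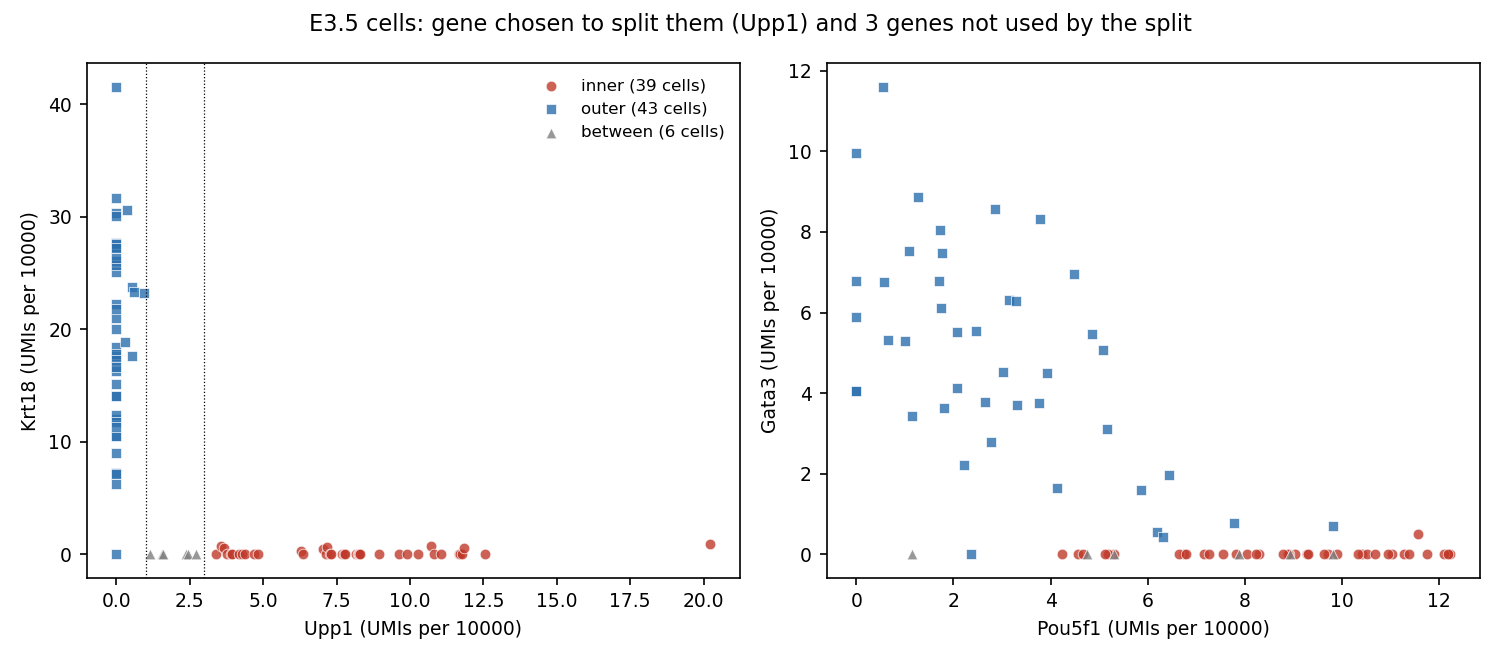
Each point is 1 E3.5 cell. Left, Upp1 (the gene that chose the groups, with dotted lines at 1 and 3) against Krt18, both in UMIs per 10000. Right, Pou5f1 against Gata3 in the same unit. Inner cells lie along the bottom of both panels, at no more than 0.963 UMIs per 10000 of Krt18 and 0.503 of Gata3, while Pou5f1 reaches from 0 to 9.82 in outer cells and overlaps the inner range.

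Across the transcriptome, 9227 genes other than Upp1 reached 10 CPM in at least 1 group. Differences are log2 ratios of CPM plus 10, inner over outer, so that weakly counted genes come out too small; a fold is CPM over CPM with nothing added. In inner cells 1176 genes (12.7%) were higher by 2-fold or more, and 918 genes (9.95%) were lower by as much. At 4-fold the counts were 170 higher (1.84%) and 243 lower (2.63%). The median over all genes was 0.18, and a median-of-ratios scaling, which removes a shift of 0.21 on the log2 scale, gave 923 genes higher and 1133 lower, so the balance of directions rests on the scaling. In inner cells 140 of the genes had no count, and in outer cells 176 had none. Because all cells come from 1 library, cells are not replicates, no p-value can be had for any difference below, and the Poisson intervals given cover counting error only. No gene separated the cells without overlap.

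Among outer cell genes the keratin pair came near the top. Krt18, the type I keratin of simple epithelia, ranged from 0 to 0.963 UMIs per 10000 in inner cells, with a median of 0, and from 0 to 41.6 in outer cells, with a median of 18.9. Of the 43 outer cells 42 lay above every inner cell, and the exception was the cell without Krt18 described above. Summed, Krt18 stood at 11 CPM in inner and 1971 CPM in outer cells, 179-fold higher in outer cells (95% Poisson interval 90.5 to 415). Krt8, its type II partner, with which it forms filaments, had a median of 0 and a highest value of 5.48 in inner cells, against a median of 19.1 and a range of 1.18 to 43.2 in outer cells. Its sums were 48.2 CPM in inner and 1843 CPM in outer cells, 38.2-fold higher in outer cells (27.4 to 55.1). Krt7, another type II keratin, had no count in inner cells and 46.5 CPM in outer cells, at least 11.3-fold higher (0 counts taken as 3 over the group, here and below).

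The transcription factors of trophectoderm fell on the same side. Cdx2, the caudal homeobox factor, ranged from 0 to 0.715 UMIs per 10000 in inner cells and from 0 to 6.44 in outer cells, with medians of 0 and 2.81. Its sums were 2.76 CPM (2 counts) in inner and 299 CPM in outer cells, a ratio of 109 (29.8 to 902). Gata3, a zinc finger factor, had 1 count in 1 inner cell (1.38 CPM), while 42 of 43 outer cells had at least 1 UMI and the sum was 507 CPM, a ratio of 368 (65.7 to 14567). Id2, an inhibitor of basic helix-loop-helix factors, stood at 2.76 CPM in inner and 792 CPM in outer cells, a ratio of 287 (79.3 to 2378). For all 3 genes no more than 2 inner cells had a UMI, and at least 37 outer cells lay above every inner cell.

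Of the 20 listed trophectoderm factors, 17 reached 10 CPM, of which 12 were at least 2-fold lower and 1 at least 2-fold higher in inner cells, with a median log2 ratio of −1.81. Over all genes 9.95% were lower and 12.7% higher by that much, with a median of 0.18. Eomes, a T-box factor of trophoblast, stood at 17.9 CPM in inner and 501 CPM in outer cells, 28.0-fold higher in outer cells (16.2 to 53). Tfap2a, an AP-2 factor, stood at 2.76 and 233 CPM and Gata2 at 2.76 and 150.3 CPM, inner before outer. Elf5, a factor of trophoblast stem cells, had no count in inner cells and 72.8 CPM in outer cells, at least 17.6-fold higher. The differences were smaller for the factors that come before Cdx2 in development: Klf5 stood at 471 CPM in inner and 681 CPM in outer cells, and Tead4, the DNA-binding partner of YAP1, at 68.9 and 120 CPM. Sox21, a SOXB2 factor, was the 1 member past 2-fold in the other direction, at 35.8 CPM in inner and 7.16 CPM in outer cells.

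Components of the Hippo pathway mostly lay within 2-fold, 13 of 19 members, with a median of −0.32. Yap1, the coactivator the pathway restrains, stood at 71.7 CPM in inner and 60.8 CPM in outer cells. Lower in inner cells were Tead3 (1.38 CPM, against 70.4 CPM in outer cells), Vgll4, a TEAD cofactor (9.65 against 72.8 CPM), Tead2 and Amotl2. Ccn1 and Ccn2, which are YAP targets in many cells, were low in both groups and past 2-fold in the other direction. Ccn2 had 11 CPM in inner cells and no count in outer cells, and Ccn1 had 22 and 5.97 CPM.

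Genes of the epithelial sheet followed the keratins. Of 25 keratin and junction genes, all at 10 CPM or more, 16 were at least 2-fold lower in inner cells, 0 were higher, and the median was −1.72. The tight junction claudins stood out: Cldn7 had 84.1 CPM in inner and 835 CPM in outer cells, Cldn4 had 26.2 and 373 CPM, and Cldn3 had no count in inner cells and 77.5 CPM in outer cells. Dsp, the desmosomal plaque protein, had 8.27 CPM in inner and 112 CPM in outer cells, and Epcam, a cell adhesion molecule of epithelia, 324 and 1090.4 CPM. The adherens junction was near level: Cdh1 (E-cadherin) stood at 222 CPM in inner and 330.5 CPM in outer cells, Ctnnb1 (beta-catenin) at 85.4 and 76.4 CPM and Ctnna1 (alpha-catenin) within 2-fold. Tjp1, a scaffold of tight junctions, stood at 103 and 100.2 CPM.

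The apical and cortical genes, 19 at 10 CPM or more, were split 11 lower and 3 higher in inner cells around a median of −1.37. Anxa2, an annexin of the cortex, had 1 count in inner cells (1.38 CPM) and 307 CPM in outer cells, and Msn (moesin) 19.3 and 237 CPM. Ahnak, a giant scaffold protein, stood at 37.2 CPM in inner and 410.4 CPM in outer cells, and Myh9, the heavy chain of non-muscle myosin II, at 142 and 674 CPM. Within 1 protein family the order turned: Ezr (ezrin), a relative of moesin found at the apical surface, was at 163 CPM in inner and 62.0 CPM in outer cells, 2.62-fold higher in inner cells (1.88 to 3.71). The polarity kinases also went apart, with Prkci at 89.6 CPM in inner and 35.8 CPM in outer cells and Prkcz at 64.8 and 210 CPM.

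Of the pumps and channels that move fluid into the blastocoel, 9 of 16 listed genes reached 10 CPM, with 4 lower and 1 higher in inner cells and a median of −0.20. Atp1b1, the beta subunit of the sodium pump, was at 74.4 CPM in inner and 302 CPM in outer cells, 4.06-fold higher in outer cells (3.01 to 5.55). Aqp3, a water and glycerol channel, was 2.22-fold higher in outer cells (1.58 to 3.17), whereas Aqp8, another aquaporin, stood at 82.7 CPM in inner and 3.58 CPM (3 counts) in outer cells, a ratio of 23.1 (7.53 to 115).

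The other genes with the lowest log2 ratios among the 15 named were Lgals1, Tmsb4x, Tspan8, Fabp3, Dppa1, Wnk2, Slc15a2, Ank and Csta1. Lgals1 (galectin-1) had the lowest ratio of all, −6.76, with 11 CPM in inner and 2267 CPM in outer cells. Its inner cells ranged from 0 to 0.594 UMIs per 10000, and its outer cells from 0 to 68.7 around a median of 21.9. Fabp3, a fatty acid carrier, was the most counted of them: 86.8 CPM in inner and 3661 CPM in outer cells, and 1 UMI or more in all 43 outer cells. Tmsb4x, which binds actin monomers, stood at 5.51 CPM in inner and 948 CPM in outer cells. Wnk2, a protein kinase, had no count in any inner cell and 304 CPM in outer cells, at least 73.6-fold higher. Slc15a2, a peptide transporter, had 1 count in inner cells and 329 CPM in outer cells, and Ank, a membrane protein of pyrophosphate export, stood at 8.27 and 512 CPM. Tspan8, a tetraspanin, stood at 8.27 CPM in inner and 859 CPM in outer cells, Csta1, an inhibitor of cysteine proteases, at 8.27 and 399.7 CPM, and Dppa1 at 2.76 CPM (2 counts) and 415 CPM. Each of the 15 genes had a UMI in at least 37 outer cells.

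**Figure D2:**
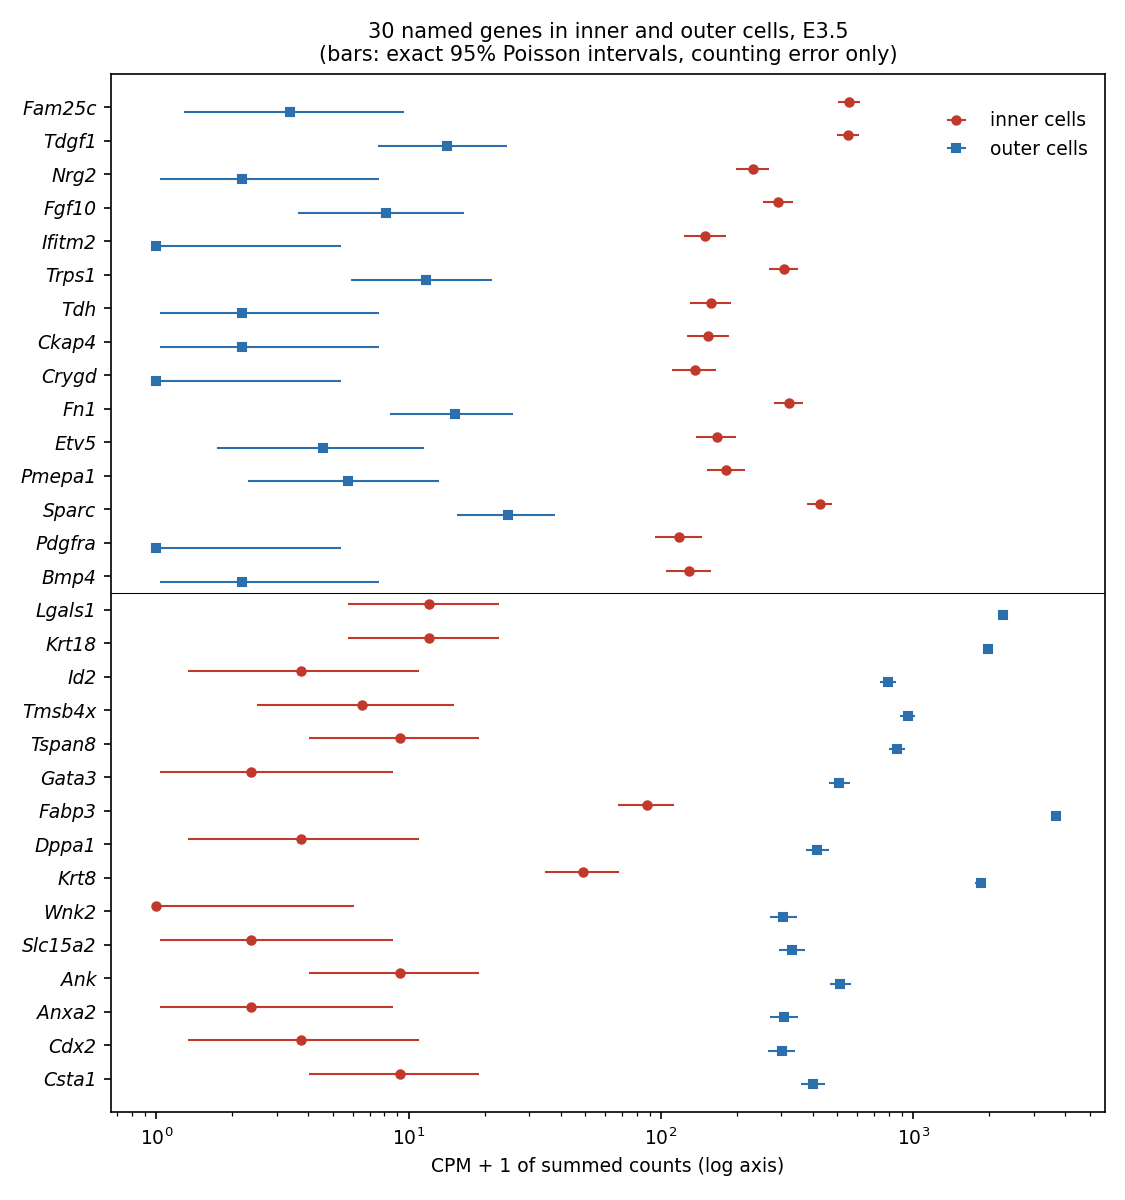
The 15 genes with the highest (top) and the 15 with the lowest (bottom) log2 ratio, as CPM plus 1 of the summed counts on a log axis, inner cells red and outer cells blue, with exact 95% Poisson intervals (counting error only). Lgals1 and Krt18 stand at 11 CPM each in inner cells, and at 2267 and 1971 CPM in outer cells. The genes at 0 CPM lie at 1 on this axis.

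On the inner side, Tdgf1 (Cripto, the coreceptor of NODAL) ranged from 0 to 12.8 UMIs per 10000 in inner cells, with a median of 3.80 and a UMI in 37 of 39 cells. In outer cells 41 of 43 had none, and the highest value, 11.8, was that of the cell without Krt18. The sums were 548 CPM in inner and 13.1 CPM in outer cells, a log2 ratio of 4.59, and 5.64 without that cell. The fold of Tdgf1 was 41.8 (23.1 to 84.4), and without that cell, which left 1 outer count, it was 455 (81.2 to 18018). Fam25c had the highest log2 ratio, 5.52, with 557 CPM in inner and 2.39 CPM (2 counts) in outer cells, a ratio of 233 (64.2 to 1933). Of 39 inner cells 34 lay above every outer cell for Fam25c, against 1 for Tdgf1. Trps1, a GATA-type repressor, and Fgf10, a secreted FGF ligand, each had a UMI in only 1 outer cell, at 10.6 and 7.07 UMIs per 10000. Trps1 stood at 306 CPM in inner and 10.7 CPM in outer cells, and Fgf10 at 289 and 7.16 CPM. Without the cell that lacked Krt18 their log2 ratios were 4.98 and 4.90, in place of 3.93 and 4.12. Neither gene had a count in the other outer cells, and the folds were then at least 84.6 and 80.0, in place of 28.5 and 40.4. Ifitm2, an interferon-induced membrane protein, had 149 CPM in inner cells and no count in outer cells, at least 41.6-fold higher, and Ckap4, a protein of the endoplasmic reticulum, 153 and 1.19 CPM (1 count).

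The core pluripotency factors differed in how far they separated the groups. Pou5f1 (OCT4) was present in every inner cell, from 4.23 to 12.2 UMIs per 10000 with a median of 9.04, and in 38 of 43 outer cells, from 0 to 9.82 with a median of 2.46. Its ranges overlapped, and the sums of 892 CPM in inner and 280.4 CPM in outer cells made it 3.18-fold higher (2.73 to 3.71). Sox2 ranged from 0 to 5.53 in inner cells, with a median of 1.02, and only 3 outer cells had a UMI, up to 4.72. It stood at 163 CPM in inner and 8.35 CPM in outer cells, 19.5-fold higher (9.16 to 49.5). Of its 7 outer counts 4 were in the cell without Krt18, and without that cell Sox2 was at 3.62 CPM (3 counts) in outer cells, a ratio of 45.0 (15.0 to 221). Nanog had a UMI in 30 inner and 7 outer cells, at 204 CPM in inner and 13.1 CPM in outer cells, 15.5-fold higher (8.44 to 31.8). Pou5f1 thus had the smallest fold of the 3 and was counted in most outer cells, while Sox2 and Nanog were counted in few.

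Among outer cells, Pou5f1 was lower where Gata3 was higher (Spearman −0.53 over 43 cells of 1 library), as the plot of single cells shows. Cdx2 had no such relation with Pou5f1 (0.15) or with Gata3 (0.06) over the same cells. These are descriptions of sparse counts, and the cell without Krt18 is among them.

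Of 28 listed pluripotency genes 27 reached 10 CPM, of which 19 were at least 2-fold higher in inner cells and 0 lower, with a median of 2.08. Klf4, a zinc finger factor, stood at 380.3 CPM in inner and 31.0 CPM in outer cells, 12.3-fold higher (8.19 to 19.1). Esrrb, an orphan nuclear receptor, had 107 CPM in inner and 3.58 CPM (3 counts) in outer cells, a ratio of 30.0 (9.90 to 149), or 89.2 (15.5 to 3567) without the cell that lacked Krt18. Tdh, the threonine dehydrogenase used by mouse pluripotent cells, stood at 157 and 1.19 CPM. Its 1 outer count was in that cell, and without it Tdh was at least 43.4-fold higher in inner cells. Tbx3 stood at 320 CPM in inner and 60.8 CPM in outer cells, and Trim28, a corepressor, at 909 and 289 CPM. Some well-known members were near level: Dppa5a stood at 3643 CPM in inner and 3896 CPM in outer cells, Sall4 at 190.2 and 208 CPM, and Nr5a2 at 181 and 184 CPM. Dppa3 (Stella) was 1.24-fold higher in inner cells (1.10 to 1.41).

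Genes of primitive endoderm were on the inner side as well. Of 23 listed, 19 reached 10 CPM, of which 14 were at least 2-fold higher and 2 lower in inner cells, with a median of 2.33. Pdgfra, the receptor that marks this lineage, had a UMI in 21 of 39 inner cells, up to 4.71 UMIs per 10000, and none in 43 outer cells: 117 CPM in inner and 0 CPM in outer cells, at least 32.7-fold higher. Sox17, an endoderm factor, had a UMI in 16 inner and 0 outer cells, 67.5 against 0 CPM, at least 18.9-fold higher. Gata4 stood at 178 CPM in inner and 7.16 CPM in outer cells. Gata6 overlapped more: 28 inner and 29 outer cells had a UMI, with medians of 2.86 and 0.663 per 10000 and sums of 351 and 101 CPM.

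The endocytic receptor pair of later endoderm came apart. Cubn (cubilin) was at 53.7 CPM in inner and 2.39 CPM (2 counts) in outer cells, a ratio of 22.5 (5.83 to 193). Its partner Lrp2 (megalin) was at 2.76 CPM (2 counts) in inner and 241 CPM in outer cells, a ratio of 87.4 in favour of outer cells (23.9 to 727). Dab2, the adaptor that binds the tail of megalin, stood at 33.1 and 211 CPM, 6.39-fold higher in outer cells (4.16 to 10.2). Lrp2 and Dab2 were the 2 listed endoderm genes on the outer side.

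Basement membrane genes were on the inner side: of 21 adhesion and matrix genes at 10 CPM or more, 13 were at least 2-fold higher and 1 lower in inner cells, with a median of 1.43. The list shares its collagens and laminins with the one for primitive endoderm. Col4a1 and Col4a2, the chains of the common type IV collagen, stood at 273 and 143 CPM in inner cells, against 14.3 and 3.58 CPM in outer cells. Serpinh1, the collagen chaperone, stood at 154 CPM in inner and 3.58 CPM in outer cells, and Sparc, which binds collagen, at 424 and 23.9 CPM. The 3 chains of laminin-111 went in steps: Lama1 was 10.6-fold higher in inner cells (7.28 to 16.1), Lamb1 5.65-fold (4.20 to 7.71) and Lamc1 3.22-fold (2.46 to 4.25). Fn1 (fibronectin) was at 320 CPM in inner and 14.3 CPM in outer cells, and Sdc4, a heparan sulfate proteoglycan, was the 1 member on the outer side, at 168 and 588 CPM.

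Several signals and their receptors lay in different groups. Beside the counts of the signalling lists, 12.7% of all genes were higher and 9.95% lower by 2-fold or more in inner cells. In the FGF and ERK list 8 of 15 members were at least 2-fold higher in inner cells and 3 lower, with a median of 1.01. The ligands Fgf4 (60.6 CPM in inner and 2.39 CPM in outer cells) and Fgf10 were inner, and without the cell that lacked Krt18 the ratio of Fgf4 was 50.3 (8.57 to 2032) in place of 25.4. The receptors Fgfr2 and Fgfr1 were higher in outer cells: Fgfr2 stood at 172 CPM in inner and 351 CPM in outer cells, 2.04-fold higher in outer cells (1.65 to 2.53), and Fgfr1 at 89.6 and 157 CPM. Etv5, an ETS factor that FGF signalling induces, stood at 165 CPM in inner and 3.58 CPM (3 counts) in outer cells, a ratio of 46.2. Without the cell that lacked Krt18 outer cells had 1 count of Etv5, and the ratio was 137 (24.2 to 5464). The feedback inhibitor Spry2 stood at 154 and 51.3 CPM. Dusp6, an ERK phosphatase, ran against them, with 6.89 CPM in inner and 31.0 CPM in outer cells.

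PDGF and LIF showed the pattern of ligand outside and receptor inside. Pdgfa stood at 64.8 CPM in inner and 335 CPM in outer cells, 5.18-fold higher in outer cells (3.79 to 7.21), while its receptor Pdgfra had no count in outer cells. Lif had no count in inner cells and 29.8 CPM (25 counts) in outer cells, at least 7.21-fold higher. Its receptor chains were inner: Lifr stood at 95.1 CPM in inner and 5.97 CPM in outer cells, and Il6st (gp130) at 45.5 and 3.58 CPM. The list of LIF, PDGF and ERBB genes had 5 members higher and 4 lower in inner cells among 15, with a median of 0.38. Nrg2, a neuregulin that binds ERBB receptors, was among the 15 genes highest in inner cells, at 230 CPM in inner and 1.19 CPM (1 count) in outer cells, a ratio of 193 (34.2 to 7664). That count was in the cell without Krt18, and the other outer cells had none (at least 63.6-fold higher in inner cells).

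For NODAL, BMP and WNT, 7 of 15 members were at least 2-fold higher and 5 lower in inner cells, with a median of 0.88. Bmp4, a ligand, had a UMI in 27 inner and 1 outer cell, at 128 CPM in inner and 1.19 CPM (1 count) in outer cells. The outer cell was again the one without Krt18, and without it Bmp4 was at least 35.4-fold higher in inner cells. Gdf3, a NODAL-related ligand, stood at 92.3 and 8.35 CPM, and Lefty2, a NODAL inhibitor, at 38.6 CPM in inner cells with no count in outer cells. Pmepa1, which restrains SMAD signalling, stood at 181 CPM in inner and 4.77 CPM in outer cells, 37.8-fold higher, and by a ratio of 74.9 (20.3 to 625) without that cell. The inhibitory Smad7 stood at 24.8 and 122 CPM. The 2 WNT ligands Wnt7b and Wnt3a had no count in inner cells, and 120 and 78.7 CPM in outer cells. The BMP target Id3 was higher in inner cells (161 and 26.2 CPM), the reverse of Id2.

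**Figure D3:**
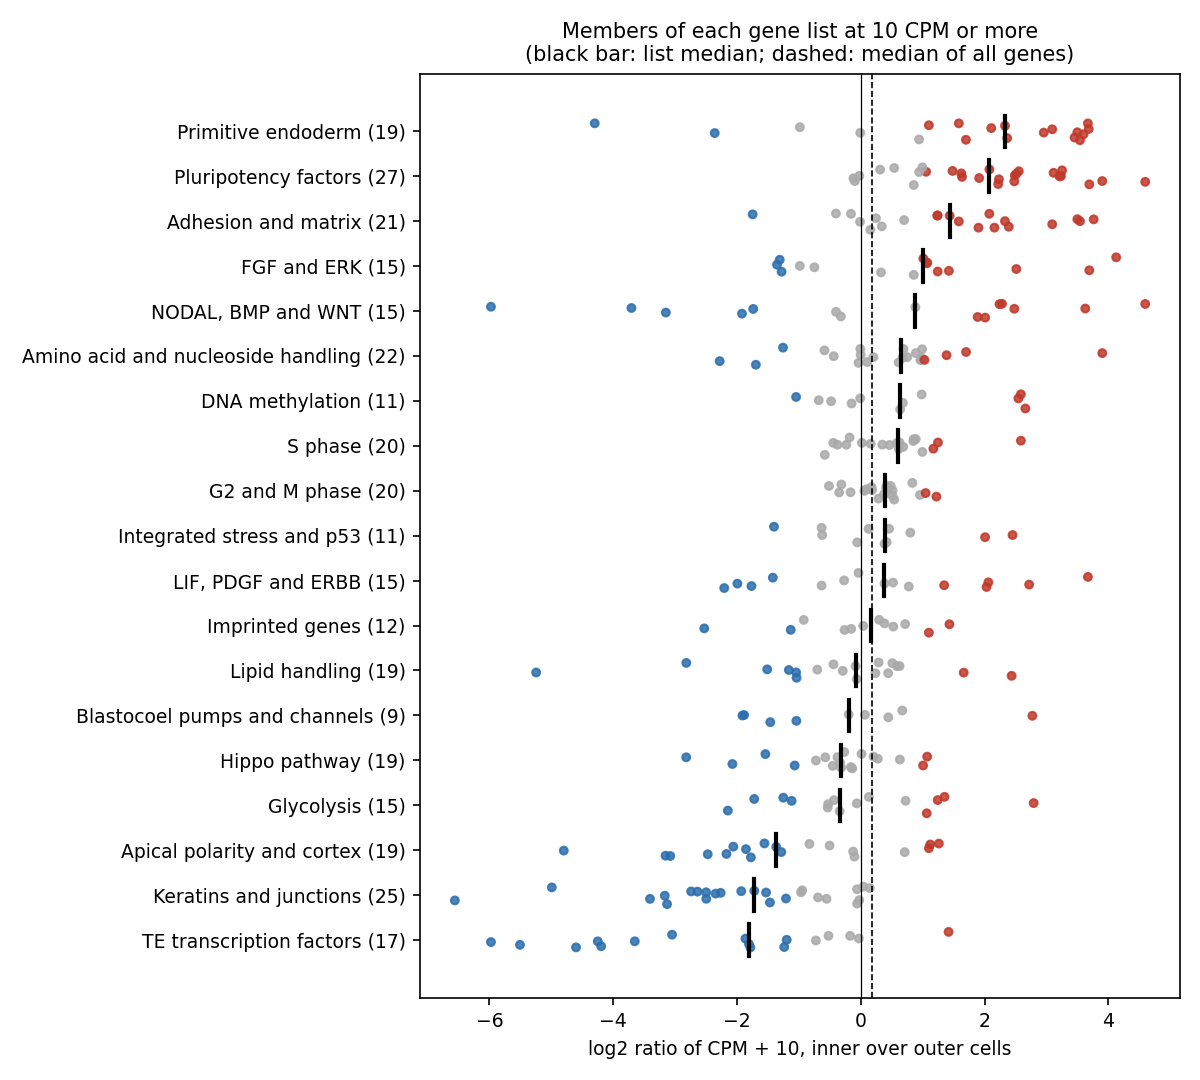
Each point is a gene at 10 CPM or more, placed by its log2 ratio of CPM plus 10 (inner over outer) in its list; red and blue points lie past 2-fold, black bars are list medians, and the dashed line is the median of all genes, 0.18 (TE is trophectoderm). Primitive endoderm and pluripotency genes have medians of 2.33 and 2.08, and keratin and junction genes and trophectoderm factors of −1.72 and −1.81.

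Metabolic lists were mixed, beside 12.7% of all genes higher and 9.95% lower by 2-fold or more in inner cells. The fatty acid carriers split: Fabp5 had a UMI in all 39 inner cells and stood at 1213 CPM in inner and 216 CPM in outer cells, 5.62-fold higher in inner cells (4.78 to 6.63), whereas Fabp3, above, was an outer gene. Across 19 lipid genes 2 were higher and 6 lower in inner cells, with a median of −0.09, and Sqle, an enzyme of cholesterol synthesis, was among the lower ones (6.89 CPM in inner and 38.2 CPM in outer cells). Of 15 glycolytic genes 4 were higher and 4 lower, with a median of −0.34. Ldha (lactate dehydrogenase A) had 59.3 CPM in inner cells and no count in outer cells, at least 16.6-fold higher, and Pkm (pyruvate kinase) stood at 375 and 141 CPM. Slc2a3, a glucose transporter, stood at 71.7 CPM in inner and 352 CPM in outer cells, and Hk2 (hexokinase 2) at 269 and 654 CPM. Threonine use was inner at both steps listed, with Tdh above and Gcat, the next enzyme, at 49.6 CPM in inner and 8.35 CPM in outer cells. The amino acid and nucleoside list had 4 members higher and 3 lower among 22, with a median of 0.64.

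For the lists that follow, the shares over all genes were again 12.7% higher and 9.95% lower. Among DNA methylation genes 3 of 11 were at least 2-fold higher and 1 lower in inner cells, with a median of 0.64. Tet1, a 5-methylcytosine oxidase, stood at 570.5 CPM in inner and 89.5 CPM in outer cells, 6.38-fold higher (4.98 to 8.27). Uhrf1, which brings DNMT1 to replicated DNA, stood at 294 and 40.6 CPM, and Zfp57, a guardian of imprints, at 60.6 and 1.19 CPM (1 count). The de novo enzyme Dnmt3a was the 1 member on the outer side, at 28.9 CPM in inner and 70.4 CPM in outer cells. Of the cell cycle genes, 17 of 20 S phase genes and 18 of 20 G2 and M phase genes lay within 2-fold, with medians of 0.60 and 0.39, beside 0.18 for all genes and the scaling shift of 0.21. In the stress and p53 list 2 of 11 were higher and 1 lower, with a median of 0.38, and Trp53 itself stood at 103 CPM in inner and 10.7 CPM in outer cells. Of 12 imprinted genes 2 were higher and 2 lower, with a median of 0.17 that is close to that of all genes, and H19 had no count in inner cells and 47.7 CPM in outer cells. The maternal list had 4 of 26 genes at 10 CPM or more (1 higher, median 0.42) and the two-cell list 1 of 12.

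The promoters of 4 genes that mark the groups are printed because both keratins share a locus and a pattern, Cdx2 is the lineage factor of the outer cells, and Tdgf1 has the highest log2 ratio in inner cells after Fam25c. Each is the RefSeq window from 250 bases before to 50 after the gene's start, on the gene's strand, in GRCm38.p6: Krt18 at chr15:102027966-102028265 (plus strand), Krt8 at chr15:102004293-102004592 (minus), Cdx2 at chr5:147307200-147307499 (minus) and Tdgf1 at chr9:110946109-110946408 (minus). In GENCODE M21, Krt18 spans bases 102028180 to 102032027 of chromosome 15 and Krt8 spans 101996698 to 102004482. The keratin genes point away from each other with 23697 bases between them. Their GENCODE starts are not the RefSeq starts that set the windows. Capitals mark matches on either strand to the octamer ATGCAAAT bound by POU factors, the AP-2 motif GCCNNNGGC, the GATA motif AGATAA, the TATA box TATAAA and the GC box GGGCGG.
Krt18: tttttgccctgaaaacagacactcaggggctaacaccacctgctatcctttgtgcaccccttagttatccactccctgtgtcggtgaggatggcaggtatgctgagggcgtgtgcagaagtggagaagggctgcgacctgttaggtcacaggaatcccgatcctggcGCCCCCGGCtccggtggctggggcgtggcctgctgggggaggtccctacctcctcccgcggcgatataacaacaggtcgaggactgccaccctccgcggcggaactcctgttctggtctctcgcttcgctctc
Krt8: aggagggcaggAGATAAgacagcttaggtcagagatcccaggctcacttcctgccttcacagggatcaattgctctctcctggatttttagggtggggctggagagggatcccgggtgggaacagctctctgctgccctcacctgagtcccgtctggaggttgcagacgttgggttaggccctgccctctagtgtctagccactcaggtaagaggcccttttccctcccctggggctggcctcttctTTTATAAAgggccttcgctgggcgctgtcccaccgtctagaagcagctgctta
Cdx2: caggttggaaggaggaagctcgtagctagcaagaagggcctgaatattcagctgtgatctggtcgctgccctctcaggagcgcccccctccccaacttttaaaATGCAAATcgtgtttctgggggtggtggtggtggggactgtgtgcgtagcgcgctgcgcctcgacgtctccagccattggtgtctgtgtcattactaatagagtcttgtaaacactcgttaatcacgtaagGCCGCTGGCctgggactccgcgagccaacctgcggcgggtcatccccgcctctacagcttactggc
Tdgf1: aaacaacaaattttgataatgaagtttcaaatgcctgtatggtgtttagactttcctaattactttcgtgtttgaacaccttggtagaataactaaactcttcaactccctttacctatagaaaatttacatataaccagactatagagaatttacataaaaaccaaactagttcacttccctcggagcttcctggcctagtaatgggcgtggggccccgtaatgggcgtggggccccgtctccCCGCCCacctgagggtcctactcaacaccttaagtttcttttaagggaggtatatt
In Krt18 the capitals are an AP-2 match, in Krt8 a GATA match and TATA matches on both strands that overlap each other, in Cdx2 the octamer and then an AP-2 match, and in Tdgf1 a GC box on the reverse strand.

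Over the 30 named genes, 10 of the 15 inner and 14 of the 15 outer ones had a promoter of this length in the table. The octamer was found in 0 of the 10 inner and 3 of the 14 outer promoters (Cdx2, Tspan8 and Tmsb4x), and in 1.75% of all 27025 promoters. AP-2 letters were in 2 inner and 5 outer promoters (16.5% of all), GATA letters in 1 and 3 (11.4%), the TATA box in 2 and 2 (14.2%), and the GC box in 6 and 6 (35.9%). The TEAD motif GGAATG was in 0 and 1 (14.6%). These are matches of letters in a window, not bound sites.

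Inner cells were not uniform. Fgf4, the epiblast signal, had a UMI in 13 of the 39 and Sox17 in 16, and no inner cell had both, while 10 had neither. Sox2 and Sox17 were both counted in 7 cells, and Fgf4 and Pdgfra in 1 cell of 13 and 21. Nanog and Gata6, in contrast, were counted together in 19 cells and none lacked both. Over the 39 cells Spearman's correlation was −0.55 for Fgf4 with Sox17, −0.55 for Nanog with Gata6 and −0.63 for Sox2 with Sox17, all between sparse counts of 1 library. Depth was similar in both kinds of cell: the 16 cells with Sox17 had a median of 17910 UMIs and 8.26 Upp1 UMIs per 10000, and the 13 with Fgf4 19374 and 7.74.

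The cells with Sox17 and the cells with Fgf4 were then summed and set side by side, a division made after these values were seen. Sox17 and Fgf4 chose the cells, so the values describe the 2 sets and support nothing about their number. Of 9514 genes at 10 CPM or more, 841 (8.84%) were higher by 2-fold or more and 940 (9.88%) lower by as much in the cells with Sox17. Pdgfra stood at 217 CPM in cells with Sox17 and 14.8 CPM in cells with Fgf4, Gata4 at 292 and 29.6 CPM, and Gata6 at 536 and 104 CPM. The adhesion and matrix list was mixed: of 23 members at 10 CPM or more 9 were at least 2-fold higher and 4 lower in cells with Sox17, with a median of 0.19 beside −0.015 for all genes. Lama1 stood at 665 CPM in cells with Sox17 and 141 CPM in cells with Fgf4, and Col4a1 at 380.1 and 111 CPM. Fn1, at 197 and 515 CPM, was among the 4 lower, with Nid1 (nidogen), at 57.7 and 152 CPM, Itgb5 and Cd44.

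On the Fgf4 side, Sox2 stood at 44.1 CPM in cells with Sox17 and 296 CPM in cells with Fgf4, Nanog at 67.9 and 363 CPM and Klf2, a naive pluripotency factor, at 20.4 and 219 CPM. Pou5f1 was level, at 831 and 926 CPM. Of the signalling genes, Fgfr2 was at 248 CPM in cells with Sox17 and 96.3 CPM in cells with Fgf4, while Fgfr1 was at 74.7 and 100.0 CPM. Dusp4, an ERK phosphatase, stood at 95 CPM in cells with Sox17 and 3.70 CPM (1 count) in cells with Fgf4. Fgf10 was at 394 and 141 CPM, Etv5 at 102 and 219 CPM, and Bmp4 at 109 and 189 CPM. Sdc4, an outer gene above, was at 231 and 25.9 CPM and so also divided the inner cells.

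The same cells were also placed by genes picked in the E4.5 library, which the Upp1 rule did not use. There, 969 cells passed the filter, and clustering with markers of each lineage named 301 epiblast-like, 425 primitive endoderm-like and 243 trophectoderm-like cells. The 30 genes that stood highest in each E4.5 class against the other 2 classes were summed per E3.5 cell. The trophectoderm set ranged from 1.02 to 18.5 UMIs per 10000 in inner cells, with a median of 8.04. In outer cells it ranged from 20.0 to 206, with a median of 128, and the groups did not overlap. The lowest outer value, close to the highest inner one, was that of the cell without Krt18, and the next outer cell stood at 41.2. Krt8, Krt18, Gata3, Tfap2c, Krt7 and Lgals3 are among the 30 genes of the trophectoderm set and among the markers that named the class. The 6 cells between stood at 1.77 to 18.9, within or just above the inner range.

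The epiblast set ranged from 1.30 to 51.8 UMIs per 10000 in inner cells (median 17.6) and from 1.75 to 37.7 in outer cells (median 6.90). The primitive endoderm set ranged from 3.05 to 127 in inner cells (median 21.9) and from 3.11 to 17.7 in outer cells (median 6.06). The highest outer value of each set was that of the cell without Krt18, and the next outer values were 12.4 and 12.3. Both sets overlapped between the groups, with or without that cell. Markers that named the classes are among these genes too: Tdgf1 and Sox2 in the epiblast set, and Cubn, Col4a1, Lama1, Gata4, Pdgfra and Amn in the endoderm set. Within the 39 inner cells the 2 sets ran against each other (Spearman −0.68). Their correlations with Upp1 were 0.13 and 0.006. Upp1 chose these cells, so values over its upper range cannot show how the sets relate to it. The cells with Sox17 had medians of 13.5 for the epiblast and 37.2 for the endoderm set, the cells with Fgf4 34.4 and 6.08, and the 10 cells with neither 14.5 and 14.5.

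**Figure D4:**
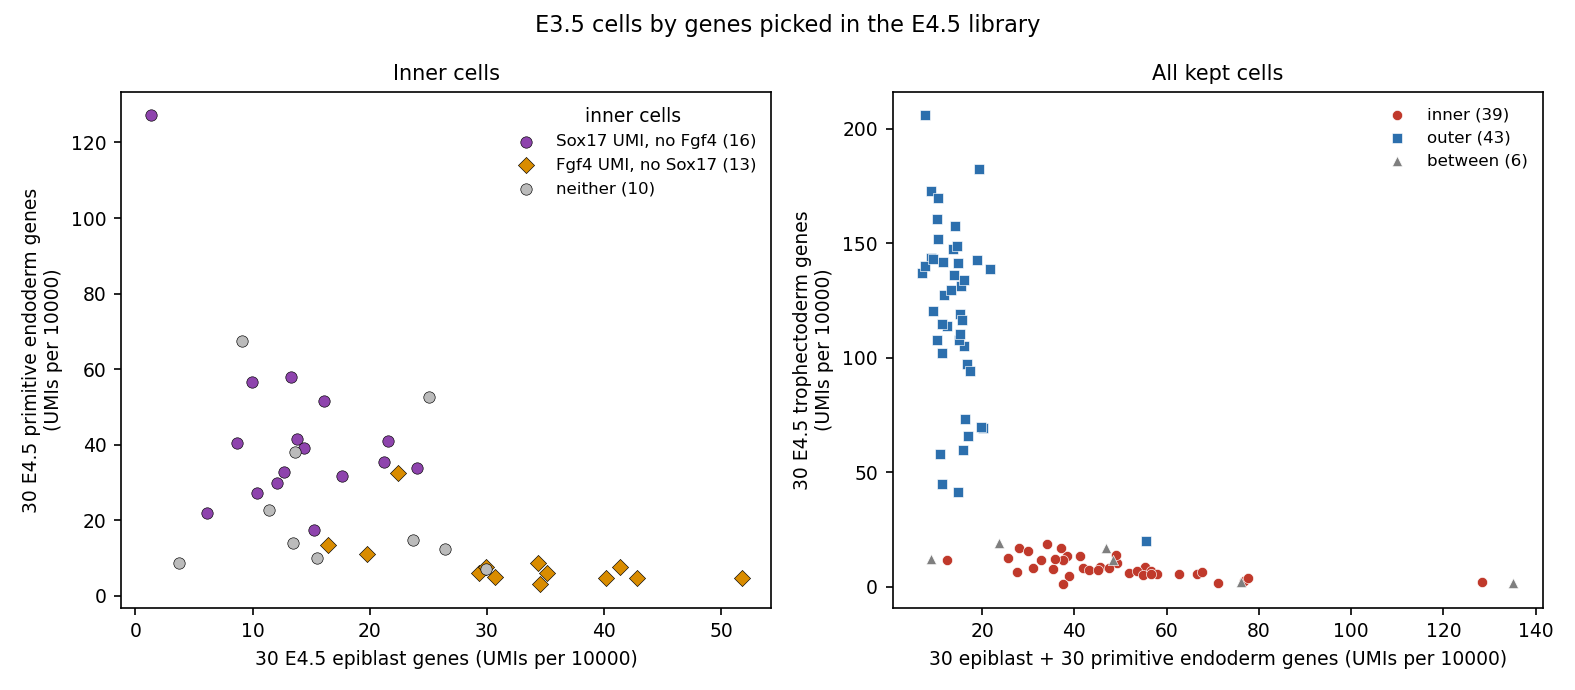
Each point is 1 E3.5 cell. Left, the 39 inner cells by the summed UMIs per 10000 of 30 epiblast genes and 30 primitive endoderm genes picked at E4.5, coloured by whether the cell had a Sox17 or an Fgf4 UMI. Right, all 88 cells by the sum of both sets against 30 E4.5 trophectoderm genes, where inner cells stay at or below 18.5 and outer cells at or above 20.0. The outer cell at 20.0 is the one without Krt18, and the next outer cell stands at 41.2.

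One day later the named genes mostly kept their side when epiblast-like cells were set against trophectoderm-like cells. This contrast leaves out the 425 primitive endoderm-like cells, while the inner cells at E3.5 included cells with Sox17. At E4.5, 9623 genes reached 10 CPM in epiblast-like or trophectoderm-like cells, of which 1229 (12.8%) were higher by 2-fold or more and 983 (10.2%) lower by as much in epiblast-like cells. Of the 30 named genes, 21 were not markers that named a class, and of these 15 were past 2-fold in the same direction and 1 in the opposite one. Over 8340 genes measured at both stages, 965 were at least 2-fold higher in inner cells, and 400 of them (41.5%, or 49.1% of the 814 such genes at E4.5) were so in epiblast-like cells, with 35 past 2-fold the other way. Of 786 lower in inner cells, 402 (51.1%, or 48.8% of 823) were lower in epiblast-like cells, and 24 were higher. The difference between stages was not tested, since each stage is 1 library.

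The 15 inner genes divided between the 2 inner lineages of E4.5. Tdgf1 stood at 447 CPM in epiblast-like, 9.63 CPM in primitive endoderm-like and 2.43 CPM in trophectoderm-like cells, and Trps1 at 165, 6.42 and 2.12 CPM in that order. Etv5, Fn1, Ifitm2, Tdh and Fam25c were also highest in epiblast-like cells. Pdgfra stood at 1.73 CPM in epiblast-like, 221 CPM in primitive endoderm-like and 7.28 CPM in trophectoderm-like cells, Fgf10 at 5.47, 206 and 5.76 CPM and Sparc at 133, 1839 and 126 CPM. Ckap4, Nrg2 and Pmepa1 were likewise highest in primitive endoderm-like cells. Crygd, a lens crystallin counted in 25 inner and 0 outer cells at E3.5 (135 and 0 CPM), had at most 5.66 CPM in any class at E4.5. Bmp4 was the gene that turned: 22.2 CPM in epiblast-like, 15.3 CPM in primitive endoderm-like and 137 CPM in trophectoderm-like cells.

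Lrp2 and Dab2, outer genes at E3.5, were both highest in primitive endoderm-like cells at E4.5. Lrp2 stood at 94.4 CPM in epiblast-like, 2521 CPM in primitive endoderm-like and 82.8 CPM in trophectoderm-like cells. Dab2 stood at 19 CPM in epiblast-like, 1984 CPM in primitive endoderm-like and 85.5 CPM in trophectoderm-like cells at E4.5. Dab2 was nevertheless among the trophectoderm markers used to name the E4.5 classes. Cdx2 was lower at E4.5 than in outer cells at E3.5: no count in epiblast-like, 0.378 CPM in primitive endoderm-like and 27.9 CPM in trophectoderm-like cells. The Upp1 rule itself no longer marked inner cells in general. At E4.5 it took 101 of 301 epiblast-like and 14 of 425 primitive endoderm-like cells as high, and 63 and 328 as low, while 0 of 243 trophectoderm-like cells were high and 238 were low.

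**Figure D5:**
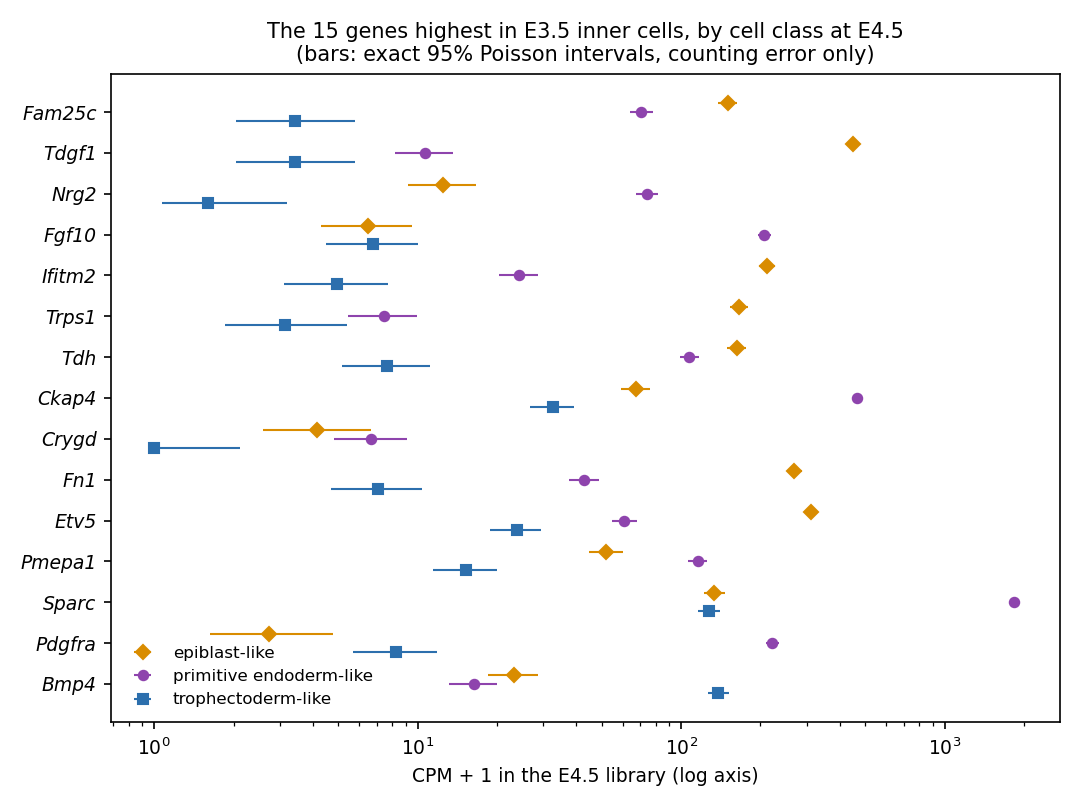
The 15 genes highest in E3.5 inner cells, in CPM plus 1 on a log axis by class at E4.5 (epiblast-like, primitive endoderm-like, trophectoderm-like), with exact 95% Poisson intervals. Tdgf1 is highest in epiblast-like cells (447 CPM), Sparc in primitive endoderm-like cells (1839 CPM) and Bmp4 in trophectoderm-like cells (137 CPM).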

How the data were processed

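The library of each stage was deposited as a matrix of raw UMI counts, genes by barcodes, that the authors had not normalised; per the file headers it was made with Cell Ranger 7.1.0. Builds named in the submitters' processing notes are GRCm38, mm10 and hg38; for the annotation release, the cell calling and the counting of reads shared by near-identical gene copies, nothing is stated in the labels or headers. Of 32285 gene identifiers 32158 (99.6%) matched GENCODE M21 on GRCm38, used for positions.

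Cells were filtered and divided as the report describes, and counts were summed per group (Python 3.11.15, numpy 2.4.6, pandas 2.3.3). Log2 ratios are of CPM plus 10, with genes at 10 CPM or more in either group. Intervals are exact at 95%, Poisson for sums and ratios and Clopper-Pearson for shares (scipy 1.17.1), and cover counting error only. The calculation was tested on simulated summed counts with Poisson error only. The simulation held no variation between cells and no choice of cells by Upp1, so it checked the calculation alone. Named genes were the 15 highest and 15 lowest ratios with at least 100 CPM and a UMI in at least 50% of cells of the higher group and at least 4-fold different, leaving out Upp1, mitochondrial, ribosomal and unnamed genes; list members were named where their list is described, by level and role. No doublet caller was run on 88 cells; cells above 2 times the median UMIs were left out as an alternative. For shares of cells with a UMI, each cell was thinned to 8000 UMIs as a check, leaving out 3 inner and 3 outer cells: Krt18 was then counted in 4 inner and 39 outer cells, Pou5f1 in 36 and 33, Sox17 in 14 and 0, Gata6 in 22 and 19.

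E4.5 cells were clustered with scanpy 1.11.5 (2000 genes, 30 components, 15 neighbours, Leiden resolution 1). The E3.5 clustering was k-means (scikit-learn 1.9.0) without Upp1. The members and lists were chosen with earlier results of these data known. The E4.5 gene sets (30 genes a class at 100 CPM or more and 4-fold over both other classes) and the division by Sox17 and Fgf4 were chosen after seeing the data.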

Additional observations from a re-analysis of the deposited data

Results flagged for a closer look

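Some differences had opposite signs in the E3.5 library (inner against outer cells) and the E4.5 library (epiblast-like against trophectoderm-like cells), each being 1 library, and the difference between the libraries was not tested. Bmp4 had a log2 ratio of 3.63 at E3.5 and −2.20 at E4.5. Matrix genes turned likewise: Col4a1 (3.54 and −1.21), Col4a2 (3.5 and −1.14) and Lama1 (3.09 and −1.06). At E4.5 they stood highest in primitive endoderm-like cells, at 1555, 844 and 1252 CPM, a class outside the E4.5 contrast. The list medians followed: the primitive endoderm list stood at 2.33 at E3.5 and −0.93 at E4.5, and the adhesion and matrix list at 1.43 and −0.71.

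Ezr stood at 1.26 at E3.5 and −1.95 at E4.5. The serine synthesis enzyme Psat1 stood at 1.03 and −1.86, with 155 CPM in epiblast-like and 592 CPM in trophectoderm-like cells at E4.5. For Ezr and Psat1 too, the E4.5 contrast leaves out primitive endoderm-like cells, while the inner cells at E3.5 included cells with Sox17.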

How the results depend on the processing

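No alternative tried reversed the direction of a named gene or of the medians recomputed for 4 lists (pluripotency, primitive endoderm, trophectoderm factors, keratins and junctions). Of the values of named genes under the alternatives, 406 stayed close and 44 moved, most of them with a pseudocount of 1 CPM. Thinning each cell to 8000 UMIs gave log2 ratios of 3.69 for Tdgf1, 3.06 for Trps1 and 2.99 for Fgf10. The pseudocount of 1 CPM gave 1894 genes at least 2-fold higher in inner cells and a median of −3.30 for keratins and junctions, and a limit of 50 CPM gave 516 genes higher and 509 lower, over fewer genes. Over all alternatives the medians ranged from 1.97 to 2.39 for pluripotency factors, 2.02 to 3.37 for primitive endoderm genes, −3.05 to −1.59 for trophectoderm factors and −3.30 to −1.65 for keratins and junctions. Dividing the cells otherwise gave 28 to 46 inner and 37 to 45 outer cells. With the E4.5 classes chosen cell by cell, or from cells with more genes, the count of named genes in the same direction was 15 in both cases. Leaving out the outer cell without Krt18, and adding the cells between to the inner group, were chosen after seeing the data. No paired analysis was possible because each stage is 1 library with no replicate, so leaving out a replicate was not possible either. With 39 and 43 cells, genes under 10 CPM were not compared, and genes with 1 to 3 counts in a group have wide intervals.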

Other observations

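None of the 6 cells between the Upp1 limits had a UMI of Krt18, Cdx2, Gata3, Id2 or Eomes, and Krt8 reached at most 1.14 UMIs per 10000. Some other outer cell genes were counted in them. Anxa2 had a UMI in 3 of the 6 cells (44.0 CPM, beside 1.38 in inner and 307 in outer cells). Fabp3 was counted in 5 (231 CPM, beside 86.8 and 3661) and Dab2 in 3 (165 CPM, beside 33.1 and 211). The sums of these 6 cells over the 30 E4.5 epiblast genes ranged from 2.95 to 40.8 UMIs per 10000. Over the 30 primitive endoderm genes they ranged from 4.06 to 132, and Pou5f1 ranged from 1.14 to 9.81.

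Over all cells of each library, some of the genes that separated inner from outer cells were most counted at E3.5. Crygd stood at 63.5 CPM at E3.5, 3.40 at E4.5 and 1.55 at E4.75, and at 0.312 or less from E5.0 on. Dppa1 stood at 212, 23.8, 3.00, 0.223, 0.0333 and 0.0351 CPM from E3.5 to E5.5, and Slc15a2 at 167, 4.81, 1.71, 1.47, 1.96 and 4.15 CPM. Tdh, in contrast, stood at 73.1 CPM at E3.5, 95 at E4.5 and 28.3 at E5.5. Lineage shares differ between the libraries, each of which is 1 sample.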
